A study of Mus musculus with 10 samples.

Results

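The interstitial collagens described here are 10 genes, Col1a1, Col1a2, Col3a1, Col5a1, Col5a2, Col6a1, Col6a2, Col6a3, Col8a1 and Col14a1, which encode chains of collagens I, III, V, VI, VIII and XIV. They were taken by gene symbol: every probe set that the array's annotation assigns to 1 of these genes and to no other was kept, including probe sets of a gene that disagree. This gave 16 probe sets for 10 of the 8251 genes named on the array, with 5 genes on 1 probe set, 4 on 2 and 1 on 3. The data are 10 arrays of RNA from gastrocnemius, the large calf muscle, of male mice aged 16 weeks. The 5 control arrays came from mice that the labels call normal, with no strain named, and the 5 mdx arrays from mice of the mdx line, which carries a mutation in Dmd, the gene for dystrophin, in all its cells. The labels name no treatment and do not say whether an array holds 1 animal or a pool, nor whether each array is a separate animal, so p-values measure the spread between these arrays, which may be in part technical.

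Interstitial collagens are secreted proteins of the connective tissue around muscle fibres, fascicles and the whole muscle, and are made mainly by fibroblasts. Collagens I and III form the thick fibrils, collagen V is built into those fibrils and sets their diameter, and collagen VI forms a beaded network of thin filaments next to the basement membrane of the fibre. Collagen XIV lies on the surface of fibrils, and collagen VIII is a short-chain, network-forming collagen. Dystrophin links the cytoskeleton of the muscle fibre to the matrix outside it, and muscle that lacks it goes through rounds of fibre death and regeneration with a build-up of connective tissue. The chains of 1 collagen are assembled in fixed proportions: collagen I from alpha 1 and alpha 2 chains, and collagen VI from 1 copy each of its alpha 1, alpha 2 and alpha 3 chains.

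The sequences before the start sites are shown first for the chains of collagens I, III, V and VI that have an entry, because probe sets of these collagens rose in the same arrays by different amounts. RefSeq promoter sequences (GRCm38.p6) were matched by symbol for 7 of the 10 genes, and Col1a1, Col5a2 and Col14a1 had no entry. Each line gives the 150 bases that end just before the annotated start, 5′ to 3′ on the gene's strand, with matches to a searched motif in capitals. The motifs, searched on both strands over 250 bases before the start, were TATAAA, the core of the TATA box near many start sites, and CCAAT, the site of the factor NF-Y. The others were GGGCGG, the GC box bound by factors of the SP family, and TGANTCA, the site of AP-1 factors. No motif's letters are contained in another's, and a GC box on the opposite strand reads CCGCCC.
Col1a2, chr6:4505468-4505617, plus strand: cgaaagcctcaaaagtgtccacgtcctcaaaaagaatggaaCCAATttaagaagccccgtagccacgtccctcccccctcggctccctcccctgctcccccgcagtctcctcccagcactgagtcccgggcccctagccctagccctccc
Col3a1, chr1:45311388-45311537, plus strand: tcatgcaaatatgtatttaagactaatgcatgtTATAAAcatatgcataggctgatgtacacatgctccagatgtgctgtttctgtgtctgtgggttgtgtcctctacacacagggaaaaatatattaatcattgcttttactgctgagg
Col5a1, chr2:27886275-27886424, plus strand: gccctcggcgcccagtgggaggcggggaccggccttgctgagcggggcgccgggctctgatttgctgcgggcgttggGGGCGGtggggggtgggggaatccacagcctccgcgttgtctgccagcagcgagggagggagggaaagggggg
Col6a1, chr10:76726045-76726194, minus strand: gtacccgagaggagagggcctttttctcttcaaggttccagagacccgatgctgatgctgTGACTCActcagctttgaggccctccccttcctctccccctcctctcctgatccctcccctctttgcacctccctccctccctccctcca
Col6a2, chr10:76623405-76623554, minus strand: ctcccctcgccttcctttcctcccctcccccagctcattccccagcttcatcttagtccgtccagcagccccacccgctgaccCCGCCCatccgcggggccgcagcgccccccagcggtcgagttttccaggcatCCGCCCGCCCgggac
Col6a3, chr1:90843972-90844121, minus strand: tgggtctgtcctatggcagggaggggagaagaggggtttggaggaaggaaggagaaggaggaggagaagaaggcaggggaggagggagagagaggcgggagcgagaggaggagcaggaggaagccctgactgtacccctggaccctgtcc

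The 3 chains of collagen VI held different letters in these windows. Col6a1 had a TGANTCA match that ended 84 bases before the start, Col6a2 had 3 GGGCGG matches of which the last 2 overlap, and Col6a3 had no match to the 4 motifs. Col6a2 has a second entry with a start farther upstream, where the single GGGCGG match ended 170 bases before the start, outside a window of this length. The Col5a1 window held 1 GGGCGG match, with another farther upstream. The Col1a2 window held CCAAT, with 2 GGGCGG matches farther upstream, and the Col3a1 window held TATAAA, which ended 112 bases before the annotated start. The Col3a1 window had the lowest G and C content of those shown, 37.3%, against 60% to 74.7% in the other 5. Over all 32841 promoters of the RefSeq table, a match within 250 bases was found for TATAAA in 12.4%, for CCAAT in 33.9%, for GGGCGG in 32.7% and for TGANTCA in 6.75%. A match is a run of letters and does not show that a factor binds there. In the order of protein-coding genes in the RefSeq annotation, Col3a1 and Col5a2 are neighbours on chromosome 1 and Col6a2 and Col6a1 are neighbours on chromosome 10.

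The values are linear intensities of probe sets, and changes are differences (mdx minus control) of log2(intensity + 372), with values below 0 set to 0. The added 372, called the noise level below, is the root mean square of all values below 0 on the arrays, so a log2 change of a dim probe set is smaller than the log2 of its ratio of means. Each test across probe sets is limma's, two-sided, adjusted by Benjamini-Hochberg over all 7612 tested probe sets, and called at 0.05. Dmd itself, on its single probe set 93623_at, had a mean intensity of 797 ± 147 (SD, n = 5) in control and 188 ± 33.7 (SD, n = 5) in mdx, where it was below the noise level on every array. It was at least 2.11-fold lower in mdx (limma adjusted p = 6.55e-06), and every mdx array lay below every control array. Pairs of control arrays correlated at 0.961 to 0.977, pairs of mdx arrays at 0.952 to 0.977, and pairs across the groups at 0.885 to 0.910. The mean intensity after trimming was 800.7 to 800.9 on 9 arrays and 723.1 on mdx replicate 1. The spiked hybridization controls, which are added in equal amount to each sample after labelling, were lower in mdx, with a geometric mean of 7256 ± 909 against 11294.5 ± 1382 (SD, n = 5 each; exact permutation p = 0.00794, two-sided, the smallest that 5 against 5 allows). The 3′ to 5′ signal ratio of Actb was 1.13 ± 0.0384 in control and 1.02 ± 0.0482 in mdx (exact permutation p = 0.0159). For Gapdh the ratio was 0.735 ± 0.0595 in control and 0.732 ± 0.0413 in mdx (exact permutation p = 0.921; SD, n = 5 throughout). The part of these differences in the results was not tested.

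Of the 16 collagen probe sets, 14 were higher in mdx, none was lower and 2 did not pass the test. Over all tested probe sets, 33.6% were called, 15.8% higher and 17.8% lower. All 5 mdx arrays lay above all 5 control arrays for the same number, 14, against 12.3% of all tested probe sets, with 12.7% having all mdx arrays below all control arrays. The median log2 change of the 16 was 1.37, beside -0.03 over all tested probe sets, whose 5th and 95th percentiles were -0.62 and 0.84. Among the 14 that rose, 11 did so at least 2-fold, taking the bound against the noise level where all control arrays were below it. Taking each gene by its brightest probe set, meaning the highest mean over all 10 arrays, 10 of 10 genes rose, with log2 changes from 0.37 (Col14a1) to 2.26 (Col3a1), beside 16.1% of all 5767 tested genes. For Col1a2 that choice rests on the mdx arrays, and with the probe set brightest on the control arrays 9 of 10 genes rose and Col1a2 did not pass the test. All 16 probe sets passed the filter on low values, which asked for an intensity above 134 on at least 5 arrays. For Col5a1 101080_at only 2 control arrays were above that value and for Col3a1 102990_at only 4 were. These 2 probe sets thus passed only through their mdx arrays, and the filter favoured a rise in them without forcing it. Of the other 14 probe sets, 12 rose. Marker genes of some other cells moved with the collagens. All 9 tested macrophage genes rose, and their summed intensity was 3883 to 7378 on control arrays and 44083 to 59198 on mdx arrays, although Itgam stayed below the noise level on every array. Fibroblast genes rose in 8 of 12, while endothelial genes fell in 2 of 8 and rose in none, and further cell types are given below. In whole muscle, more cells of a type and more RNA per cell cannot be told apart, and the part of macrophages or of other cells in the collagen changes was not tested.

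**Figure D1:**
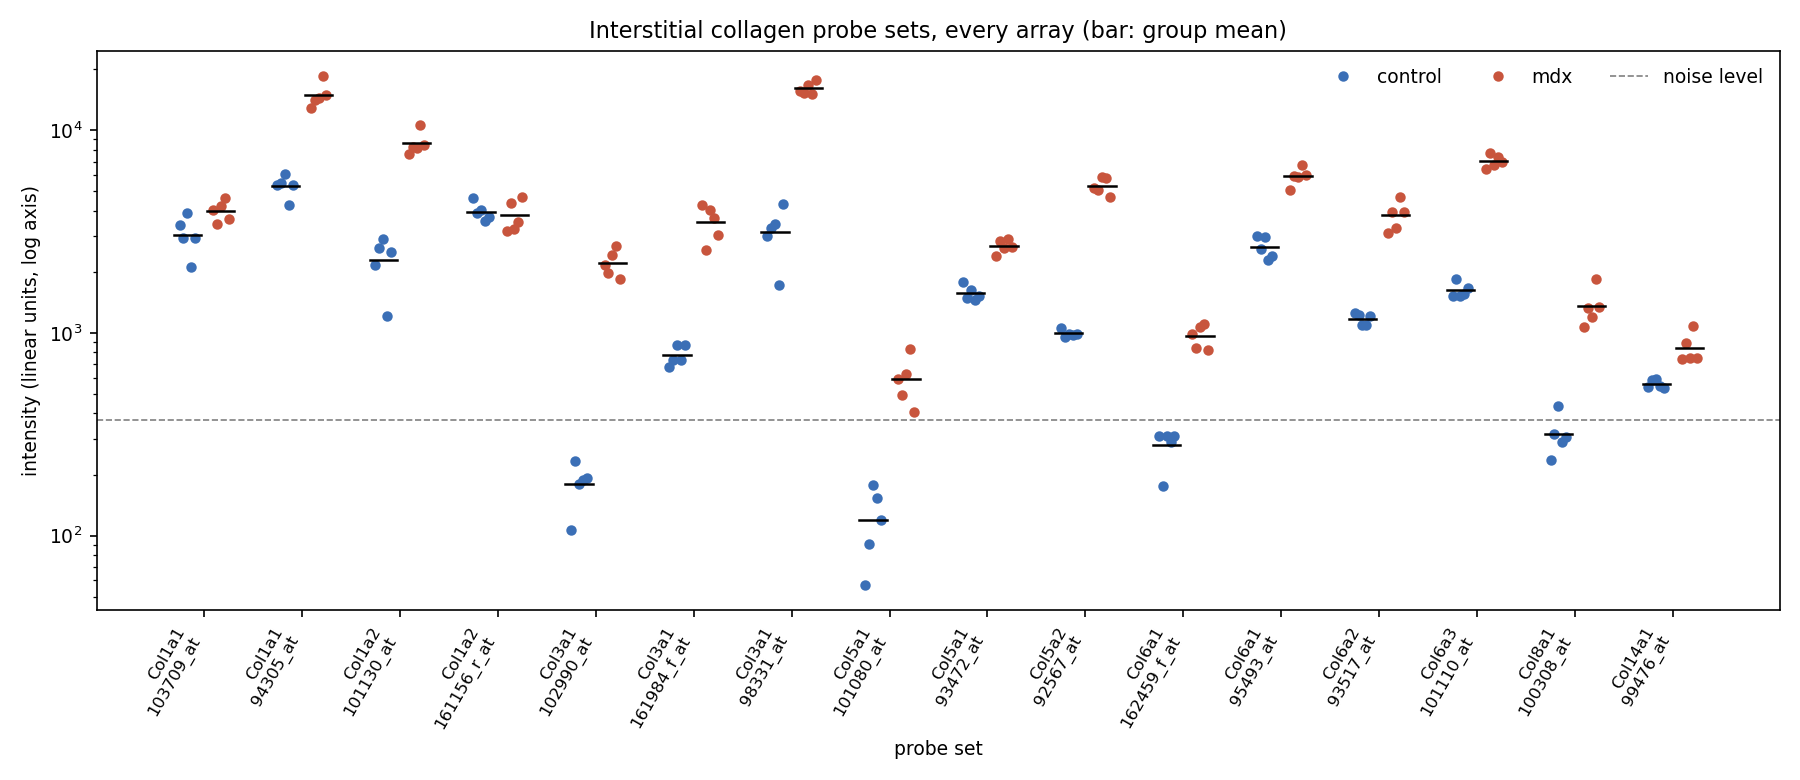
Intensity of each of the 16 collagen probe sets on each array (log axis), control in blue beside mdx in red, with 1 point per array, a bar at each group's mean and a dashed line at the noise level. The groups separate for 14 probe sets and overlap for 2, Col1a1 103709_at and Col1a2 161156_r_at.

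**Figure D2:**
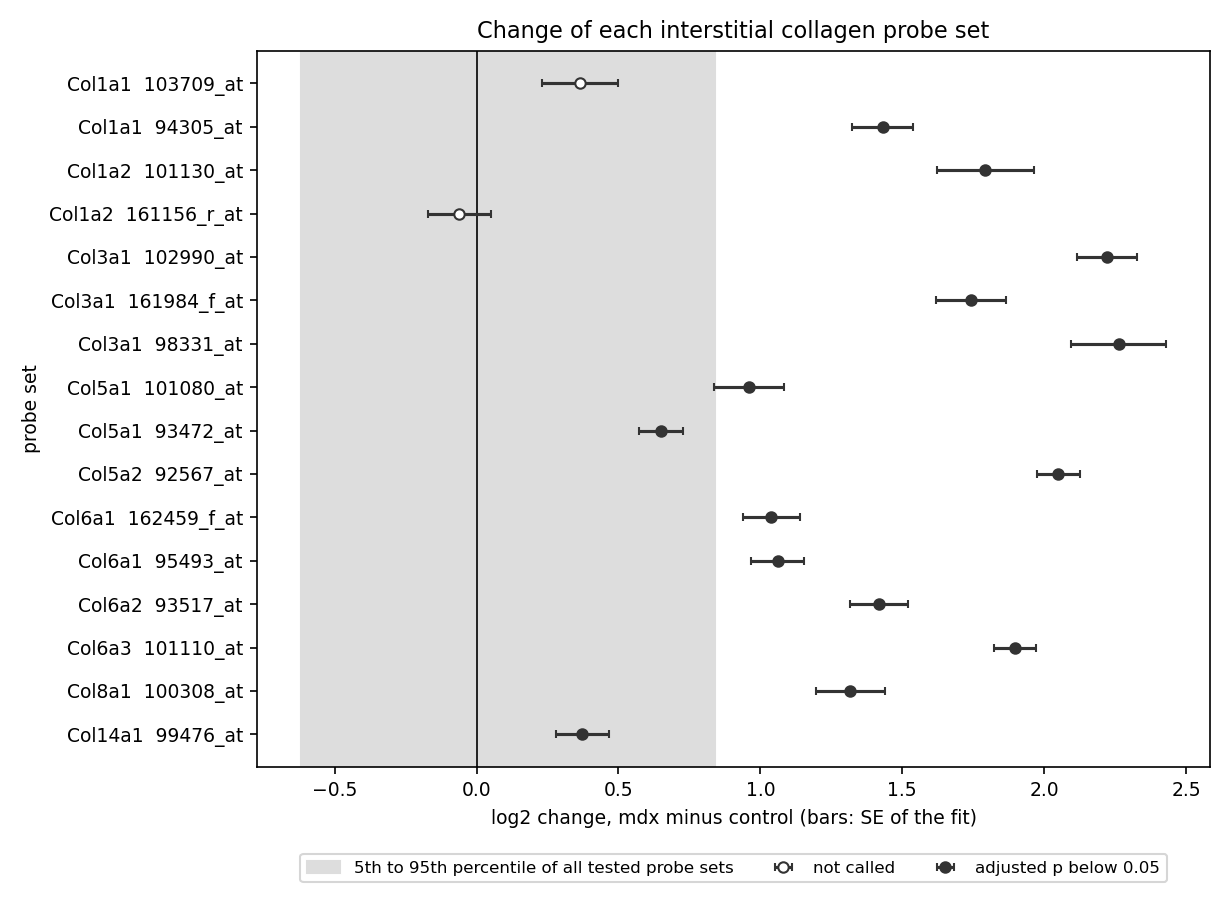
Change in mdx (log2, with the limma standard error as bars) of the 16 probe sets, in order of gene, against a grey band from the 5th to the 95th percentile of all tested probe sets, -0.62 to 0.84. Filled points passed the test. Col3a1 102990_at and Col5a1 101080_at passed the filter only through their mdx arrays. The largest changes are those of Col3a1 (2.26 and 2.22) and Col5a2 (2.05), while Col14a1 (0.37) and Col5a1 on 93472_at (0.65) passed the test but lie within the band.

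When all arrays were instead scaled to the spiked hybridization controls, the median of all tested probe sets moved to 0.35 and 96.6% of all calls were rises, against 47.1% with the deposited scaling. Under that scaling the median collagen change was 1.82 and 16 of 16 probe sets were called higher, beside 46.7% of all tested probe sets. Such scaling multiplies all probe sets of an array by the same factor. The lead of the collagens over the median of all probe sets therefore had to stay of similar size. The direction of small changes among other genes did depend on the scaling.

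Collagen I is the main fibrillar collagen of the connective tissue, and each of its chains had 1 probe set that rose and 1 that did not pass the test. Col1a1, the alpha 1 chain, was measured by probe set 94305_at at 5384, 5460.01, 6091, 4266 and 5356 on control replicates 1 to 5. On mdx replicates 1 to 5 it read 12904.9, 14144, 14394, 18462 and 14972. The lowest mdx array was more than 2 times the highest control array. The means were 5311 ± 658 and 14975 ± 2090.1 (SD, n = 5 each), a 2.82-fold rise with a log2 change of 1.43 (SE 0.11 and limma adjusted p = 7.67e-07). The other Col1a1 probe set, 103709_at, read 3395, 2932, 3917, 2107 and 2923 in control. In mdx it read 4017, 3432, 4202, 4649 and 3651, so that control replicate 3 lay above 2 of the mdx arrays and the groups overlapped. Its means were 3055 ± 669 and 3990.1 ± 476 (SD, n = 5 each), and its log2 difference of 0.36 (SE 0.13) did not pass the test (limma adjusted p = 0.0512). It passed in 8 of 21 alternative analyses, where the adjusted p ran from 0.000366 to 0.118.

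Col1a2, the alpha 2 chain, gave a wider disagreement between its probe sets. Probe set 101130_at read 2170.2, 2621, 2893, 1214 and 2515 on control replicates 1 to 5 and 7616, 8254, 8152, 10645.5 and 8428 on mdx replicates 1 to 5. The groups lay far apart, with control replicate 4 lowest in its group and mdx replicate 4 highest in its own. The means, 2283 ± 651 and 8619 ± 1173 (SD, n = 5 each), differed 3.78-fold, a log2 change of 1.79 (SE 0.17 and limma adjusted p = 5.81e-06). Probe set 161156_r_at, which was the brighter of the pair in control and the dimmer in mdx, read 4612, 3888, 4027, 3557 and 3708 in control and 3180.1, 4387, 3256, 3537 and 4680.4 in mdx. Here the groups overlapped throughout, the highest and the lowest array both being mdx. Its means were 3958 ± 406 and 3808 ± 684 (SD, n = 5 each) and its log2 difference was -0.06 (SE 0.11 and limma adjusted p = 0.719), with the sign turned to 0.03 after quantile normalization and to 0.52 after scaling to the hybridization controls. In the naming of this array type the suffix _r marks a probe set for which some of the rules for choosing probes were dropped, and _f one whose probes may also match related sequences.

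Collagen III is the fibrillar collagen of loose and newly laid connective tissue, and its gene had the largest change among the 10. Col3a1 on probe set 98331_at read 3021, 3290.1, 3445, 1723 and 4299 on control replicates 1 to 5. On mdx replicates 1 to 5 it read 15665.5, 15182, 16763, 15074 and 17582. Every mdx array was more than 3 times the highest control array, and control replicate 4 was the lowest. The means were 3156 ± 933 and 16053 ± 1085 (SD, n = 5 each), a 5.09-fold rise (log2 change 2.26, SE 0.17, limma adjusted p = 6.90e-07). The dimmer probe set 161984_f_at lay at 677 to 869 in control and at 2553 to 4255 in mdx, with means of 777 ± 87.6 and 3519 ± 709 (SD, n = 5 each), a 4.53-fold rise (log2 change 1.74, SE 0.12, limma adjusted p = 4.62e-07). On the third, 102990_at, all control arrays were below the noise level, at 107 to 232, and the mdx arrays were at 1842 to 2682. That is at least 5.89-fold higher, from the mean log2 intensity of the mdx arrays against the noise level, with a log2 change of 2.22. No p is given, since this probe set passed the filter only through its mdx arrays.

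The 3 Col3a1 probe sets differed in the size of their change in some pairs. The change of 98331_at exceeded that of 161984_f_at by 0.52 on the log2 scale (exact permutation p = 0.0159, adjusted over the 12 pairs compared 0.0212), with 1 control array overlapping the mdx range. That call was lost, at adjusted p = 0.0529 or 0.0635, without any 1 of control replicates 1 to 4 or mdx replicate 2, and the difference was 0.36 without control replicate 4. It was also lost under other noise settings. The difference was 0.41 at 0.5 times the noise level (exact permutation adjusted p = 0.143) and 0.38 at a noise level of 157 (exact permutation adjusted p = 0.151). With values below the noise level set to it, the difference was 0.24 (exact permutation adjusted p = 0.438). The change of 161984_f_at was below that of 102990_at by 0.48 (difference -0.48). This pair passed the permutation test, but no p is given, since 102990_at passed the filter only through its mdx arrays. Its control arrays were all below the noise level. Over the alternatives the difference ran from -0.86 to -0.20, and at -0.20, with the noise level doubled, it did not pass. Between 98331_at and 102990_at the difference was 0.04 and did not pass the test, with a sign that turned in several alternatives. With the noise level doubled it was 0.47 and passed. No p is given for this pair either.

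Collagen V nucleates fibrils of collagen I, and the probe sets of its 2 chains changed by unequal amounts. Col5a2, the alpha 2 chain, read 1058, 956, 992, 979 and 992 on control replicates 1 to 5. On mdx replicates 1 to 5 it read 5192, 5055, 5851, 5797 and 4661. Both groups were tight, and the lowest mdx array was more than 4 times the highest control array. The means were 996 ± 37.9 and 5311 ± 508 (SD, n = 5 each), a 5.33-fold rise (log2 change 2.05, SE 0.08, limma adjusted p = 2.77e-09). Col5a1, the alpha 1 chain, read 1791, 1481, 1621, 1453 and 1527 in control and 2397, 2823, 2621, 2893 and 2665 in mdx on probe set 93472_at. The groups did not overlap, but the distance between them was far smaller than for Col5a2. The means, 1574 ± 137 and 2679.8 ± 193 (SD, n = 5 each), gave a 1.70-fold rise (log2 change 0.65, SE 0.08, limma adjusted p = 3.47e-05).

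The second Col5a1 probe set, 101080_at, passed the filter only through its mdx arrays. It lay at 57.2 to 177 in control, below the noise level on every array, and at 406 to 831 in mdx, so that it was at least 1.54-fold higher, with a log2 change of 0.96. No p is given for the same reason as for Col3a1 102990_at. The 2 Col5a1 probe sets differed in change by -0.31, which did not pass the permutation test, and again no p is given. Over the alternatives the value ran from -0.72 to 0.15, and it passed in 3 of 21. These were 0.5 times the noise level (-0.63), a noise level of 157 (-0.72) and leaving out mdx replicate 5 (-0.38). The control arrays on 101080_at all lay below the noise level.

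Collagen VI forms the filament network next to the fibre's basement membrane, and mutations in any of its 3 main chains cause muscle disease. Col6a1, the alpha 1 chain, read 3009, 2597, 2977, 2275 and 2392 on control replicates 1 to 5 and 5044, 5948, 5902, 6717 and 6018 on mdx replicates 1 to 5 with probe set 95493_at. All mdx arrays lay above all control arrays, the lowest being mdx replicate 1. The means were 2650.1 ± 334 and 5926 ± 595 (SD, n = 5 each), a 2.24-fold rise (log2 change 1.06, SE 0.09, limma adjusted p = 3.31e-06). Its second probe set, 162459_f_at, lay at 175 to 311 in control, below the noise level, and at 825 to 1110.3 in mdx, which is a rise of at least 2.57-fold (log2 change 1.04, SE 0.10, limma adjusted p = 6.80e-06). The 2 probe sets differed in change by 0.02 (exact permutation adjusted p = 0.883).

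Col6a2, the alpha 2 chain, read 1251, 1226, 1099, 1088 and 1212 on control replicates 1 to 5 and 3092, 3927, 3306, 4693 and 3969 on mdx replicates 1 to 5. The control arrays lay close together, and mdx replicate 4 was the highest. The means, 1175 ± 76.0 and 3797 ± 629.7 (SD, n = 5 each), gave a 3.23-fold rise (log2 change 1.42, SE 0.10, limma adjusted p = 5.09e-07). Col6a3, whose large alpha 3 chain is needed for the collagen VI molecule to be secreted and to assemble, read 1525, 1835, 1512, 1556 and 1667 in control and 6457, 7690.2, 6716, 7364 and 6971 in mdx. Every mdx array was more than 3 times the highest control array. The means were 1619 ± 136 and 7039.7 ± 494 (SD, n = 5 each), a 4.35-fold rise (log2 change 1.90, SE 0.07, limma adjusted p = 4.44e-09).

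The remaining pair, from collagens outside the main fibrils, differed in size. Col8a1, the alpha 1 chain of the network-forming collagen VIII, read 235, 315, 434, 289 and 307 on control replicates 1 to 5, of which 4 were below the noise level. On mdx replicates 1 to 5 it read 1064, 1322, 1197, 1845 and 1345. The mdx arrays were all more than 2 times the highest control array. The means were 316 ± 73.0 and 1355 ± 296 (SD, n = 5 each), a ratio of 4.28 with a log2 change of 1.32 (SE 0.12 and limma adjusted p = 4.50e-06). Col14a1, a collagen of the fibril surface, read 541, 587, 595, 546 and 534 in control and 747, 888, 748, 1078 and 748 in mdx. Its groups did not overlap, although 3 of the mdx arrays lay within 2 units of each other and mdx replicate 4 stood well above them. The means were 561 ± 28.2 and 842 ± 145 (SD, n = 5 each), a 1.5-fold rise with the smallest log2 change among the brightest probe sets of the 10 genes, 0.37 (SE 0.09 and limma adjusted p = 0.00777).

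Chains of 1 collagen were then compared within each array, so that a factor common to an array cancels nearly, though not fully because of the added noise level. For each array the log2 value of 1 chain was subtracted from that of its partner, and the groups were compared by an exact permutation test, adjusted over 12 pairs, of which 5 were chain pairs and 7 were probe sets of 1 gene. The level of such a difference depends on the probes, and only its shift between groups is read. The shift can depend on them too: the probe sets of Col1a1 and of Col1a2 shifted against each other, while those of Col6a1 did not pass the test. A shift between chains therefore cannot be told apart from a difference in response between probe sets. Each chain was read on its probe set brightest over all 10 arrays, and so read all 5 chain pairs shifted without overlap of the groups, each at adjusted p = 0.0119 from an exact p of 0.00794. Of all 12 pairs, 9 passed the test, and 8 did of the 9 that hold neither probe set that passed the filter only through mdx.

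The largest shift between chains was in collagen V, where Col5a2 minus Col5a1 went from -0.51 ± 0.0645 in control to 0.89 ± 0.145 in mdx (SD, n = 5 each; exact permutation adjusted p = 0.0119), a shift of 1.40. In collagen I, Col1a2 minus Col1a1 went from -1.13 ± 0.248 to -0.77 ± 0.0287 (SD, n = 5 each; exact permutation adjusted p = 0.0119), a shift of 0.36. The mdx arrays gave nearly the same value for this pair, while control replicate 4, at -1.55, lay apart from the other control arrays at -1.18 to -0.96. Without that array the shift was 0.26. The direction rests on the Col1a2 probe set: with 161156_r_at, the brighter in control, the difference went from -0.39 ± 0.156 to -1.88 ± 0.284 (SD, n = 5 each; exact permutation adjusted p = 0.0119), a shift of -1.49.

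On the probe sets read, the collagen VI chains, which assemble in equal numbers, rose in the order Col6a1, Col6a2, Col6a3. Col6a2 and Col6a3 each have a single probe set, so the order could not be checked on another. Col6a2 minus Col6a1 went from -0.96 ± 0.159 to -0.60 ± 0.109 (SD, n = 5 each; exact permutation adjusted p = 0.0119), a shift of 0.36. Col6a3 minus Col6a1 went from -0.60 ± 0.214 to 0.24 ± 0.0999 (SD, n = 5 each; exact permutation adjusted p = 0.0119), a shift of 0.84. Col6a3 minus Col6a2 went from 0.36 ± 0.0881 to 0.84 ± 0.153 (SD, n = 5 each; exact permutation adjusted p = 0.0119), a shift of 0.48. Col6a1 and Col6a2 are the neighbouring genes on chromosome 10 whose windows are printed above.

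Within both collagen I genes, the 2 probe sets also differed in their change. The change of Col1a1 on 94305_at exceeded that on 103709_at by 1.07, and the change of Col1a2 on 101130_at exceeded that on 161156_r_at by 1.85, both without overlap of the groups (exact permutation adjusted p = 0.0119 each). The fold change of a collagen I chain from this array therefore depends on the probe set that is read.

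**Figure D3:**
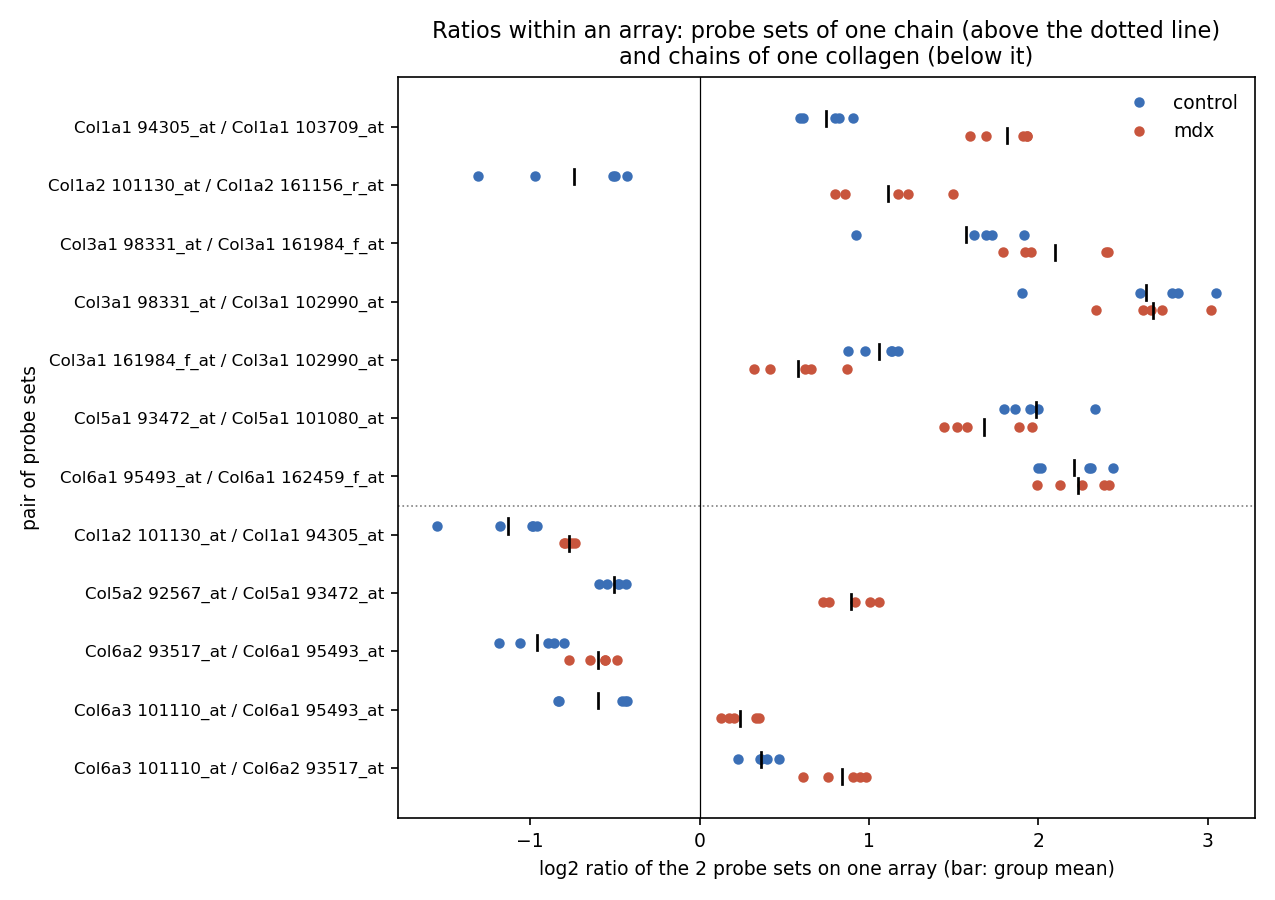
Difference of log2 values between 2 probe sets on each array for the 12 pairs, with 1 point per array, control in blue above mdx in red, and a bar at each group's mean. The chain pairs of collagens I, V and VI separate fully. The groups overlap for Col3a1 98331_at with 161984_f_at and with 102990_at, for the 2 Col5a1 probe sets and for the 2 Col6a1 probe sets.

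Single arrays often gave the highest or lowest value of their group, over probe sets that share genes and arrays. Among the 16 probe sets, mdx replicate 4 gave the highest value of its group in 11 and mdx replicate 1 the lowest in 9, and control replicate 4 gave the lowest of its group in 8 and control replicate 3 the highest in 7. The lower trimmed mean of mdx replicate 1, given above, lies on the same array as those low values, and its part in them was not tested. The mean profile of the 10 genes, each on its brightest probe set and as a log2 difference from its control mean, was 1.28, 1.43, 1.39, 1.62 and 1.42 on mdx replicates 1 to 5. On control replicates 1 to 5 it was 0.02, 0.05, 0.10, -0.22 and 0.05. The spread within each group was thus small beside the distance between the groups.

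**Figure D4:**
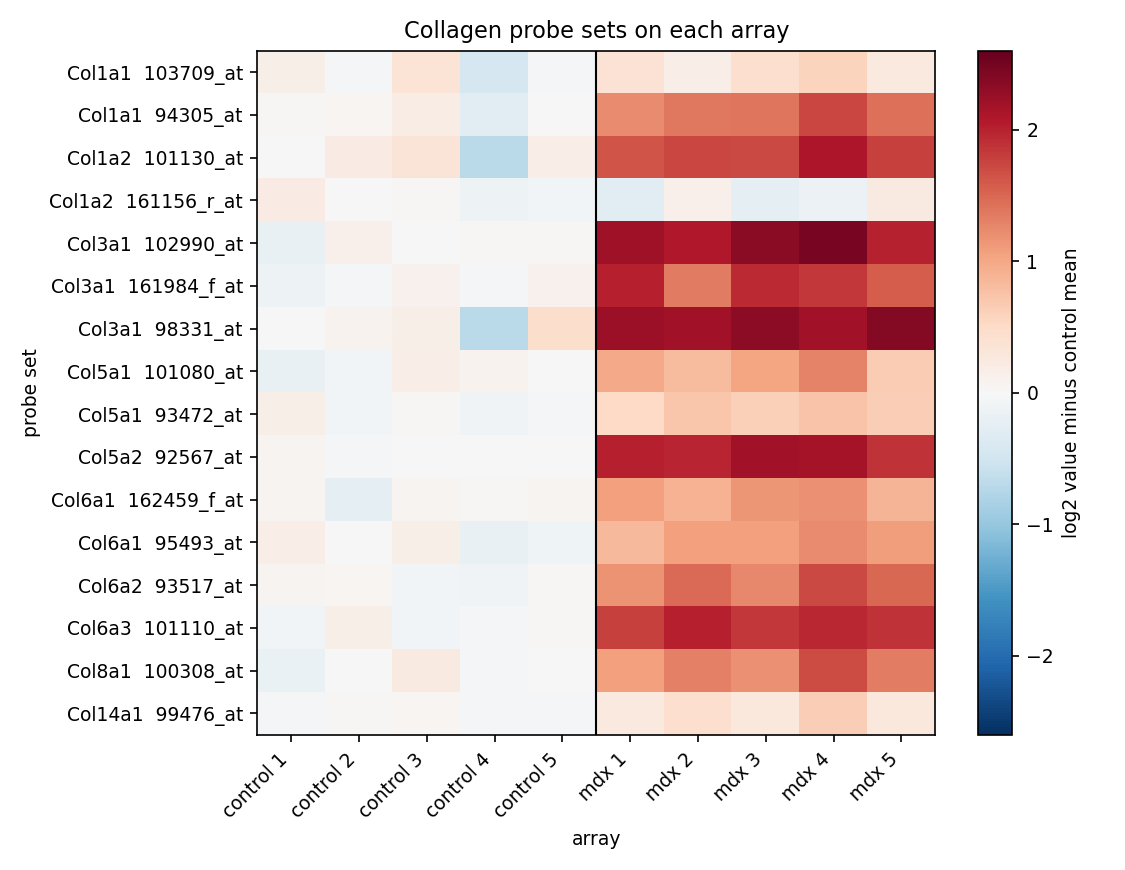
Log2 difference from the control mean of each collagen probe set (rows) on each array (columns), on a colour scale with white at 0. The control arrays lie between -0.70 and 0.45 and the mdx arrays between -0.28 and 2.47, with the rows of Col1a1 103709_at and Col1a2 161156_r_at close to white throughout.

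Genes outside the 10 were ranked by how near their profile over the 10 arrays lay to that mean profile, by root mean square distance on the log2 scale among 6804 probe sets that name 1 gene. The nearest 5 were S100a10, a calcium-binding protein family member that partners annexin A2, at 0.119, Fstl1, a secreted follistatin-like protein, at 0.131, Cd300c2, a receptor of myeloid cells, at 0.142, Slc11a1, a metal transporter of the phagosome, at 0.148, and Ifi204, an interferon-inducible gene, at 0.15. The median distance of all candidates was 1.06. Among the collagens themselves, Col1a1 lay at 0.059 and Col6a2 at 0.099 from their own mean, and Col14a1 lay farthest, at 0.749. The profile is mostly the step between the groups. The size of the step depends on the noise level that is added, least for S100a10, at 1.29 to 1.58 over the noise settings. It ran from 1.11 to 1.69 for Fstl1, 0.96 to 1.75 for Cd300c2, 0.95 to 2.01 for Slc11a1 and 1.02 to 1.97 for Ifi204. Cd300c2 and Slc11a1 never reached the noise level in control, and they passed the filter only through their mdx arrays. S100a10 went from 1988 ± 146 to 5950 ± 554 and Fstl1 from 806 ± 78.1 to 2596 ± 244 (SD, n = 5 each). Cd300c2 went from 256 ± 99.2 to 1205 ± 136, Slc11a1 from 110.4 ± 65.0 to 916 ± 219 and Ifi204 from 379 ± 43.6 to 1535 ± 145 (SD, n = 5 each).

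Genes of the wider collagen pathway were read from 6 lists with 142 genes, of which 112 were on the array and 87 were tested, each by its brightest probe set. Of the 87, 36 rose, 11 fell and 40 did not pass the test, beside 16.1% and 18.6% of all tested genes that rose and fell. The 36 include Junb, Il13ra1, Nfya, Mmp3 and Col18a1, which passed the filter only through their mdx arrays, so that the filter favoured a rise. The 11 include Ets1, Col12a1 and Col9a1, which passed it only through their control arrays. The count of falls was 7 without control replicate 3, without mdx replicate 1 or without mdx replicate 2. After scaling to the hybridization controls, 57 rose and 1 fell.

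**Figure D5:**
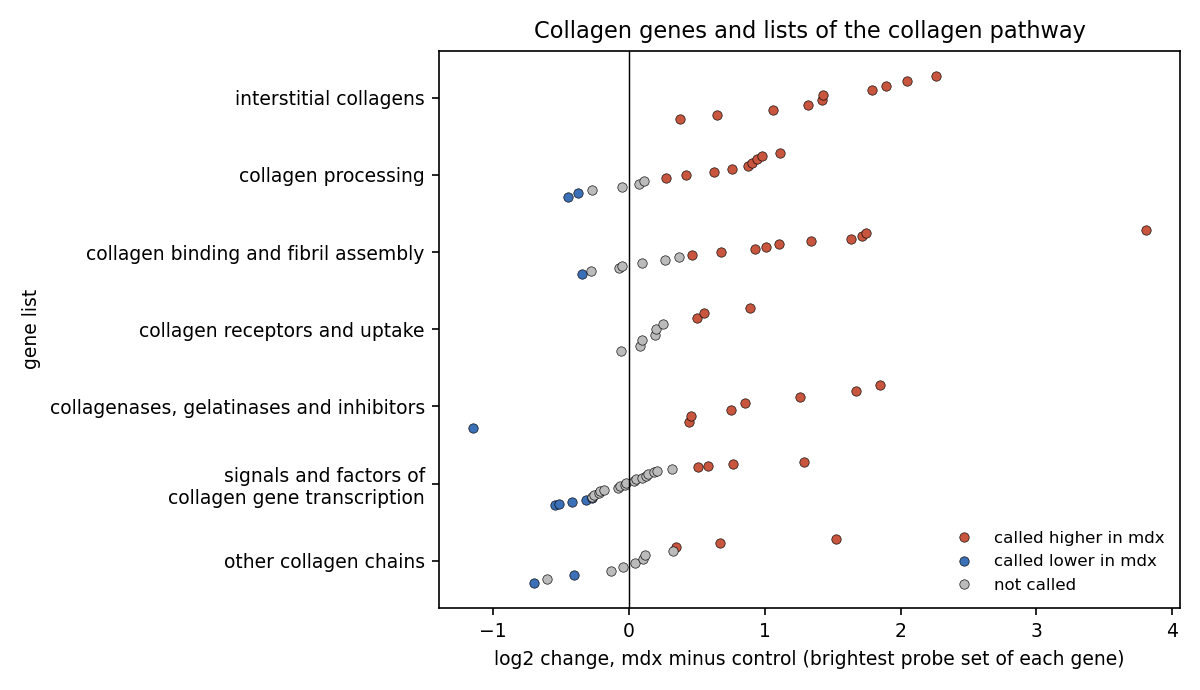
Change in mdx (log2) of the 10 collagen genes and of the tested genes of the 6 pathway lists, with 1 point per gene, red where called higher, blue where called lower and grey where not called. Most points of the protease and fibril binding lists lie above 0, and those of the transcription list lie on both sides.

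Enzymes and chaperones that modify, fold, export and cross-link collagen rose in 9 of 15 tested genes, fell in 2 and did not pass in 4, with a median log2 change of 0.42. Serpinh1, the collagen chaperone of the endoplasmic reticulum, went from 2404 ± 581 to 5563 ± 632 (SD, n = 5 each), a log2 change of 1.11 (SE 0.13 and limma adjusted p = 3.53e-05). Crtap and Ppib, partners in the prolyl 3-hydroxylase complex, rose by 0.94 and 0.88. Lox and Loxl1, which start cross-linking, rose by 0.91 and 0.76, and Pcolce, an enhancer of procollagen C-proteinase, rose by 0.98. The 2 that fell, named after their values were seen, were Sec23a, a coat protein of export vesicles, and Mia3, a cargo receptor for procollagen, with log2 changes of -0.38 and -0.45 that turned to 0.21 and 0.08 after scaling to the hybridization controls. A second, dim probe set of Sec23a had a log2 difference of 0.17 and did not pass the test (limma adjusted p = 0.349).

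Proteins that bind collagen or take part in fibril assembly rose in 10 of 17 tested genes, fell in 1 and did not pass in 6, with a median of 0.68. Postn, a matricellular protein that binds collagen I, had the largest change of the pathway genes, from 377 ± 137 to 10063 ± 1304 (SD, n = 5 each), a log2 change of 3.81 (SE 0.12 and limma adjusted p = 1.33e-09), with 4 of 5 control arrays below the noise level. Fn1, which encodes fibronectin, rose by 1.72, Lum, a keratan sulphate proteoglycan of fibrils, by 1.63, Sparc, a collagen-binding glycoprotein, by 1.34, and Tgfbi, a TGF-beta induced matrix protein, by 1.11. Bgn, which encodes biglycan, rose by 1.74 on its brightest probe set and had a difference of 0.24 on another that did not pass the test (limma adjusted p = 0.0813). The 1 gene called lower was Dcn, which encodes decorin, from 31123 ± 4060 to 24461 ± 3229 (SD, n = 5 each), with a log2 change of -0.34 (limma adjusted p = 0.0294) that turned to 0.14 after quantile normalization and to 0.29 after scaling to the hybridization controls. Its call was also lost without control replicate 2 or 3 or without mdx replicate 1, 2 or 4.

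Proteases and their inhibitors rose in 7 of 8 tested genes and fell in 1, with a median of 0.80, and without mdx replicate 2, 3, 4 or 5 the number that rose was 5. Timp1, an inhibitor of matrix metalloproteinases, went from 974 ± 219 to 4531 ± 1148 (SD, n = 5 each), a log2 change of 1.85 (SE 0.16 and limma adjusted p = 3.24e-06). Timp3, an inhibitor bound to the matrix, fell from 6119 ± 1214 to 2543 ± 431 (SD, n = 5 each), a log2 change of -1.15 (SE 0.14 and limma adjusted p = 4.14e-05), with no overlap of the groups. Mmp3, stromelysin 1, never reached the noise level in control and was at least 2.87-fold higher in mdx. It passed the filter only through its mdx arrays. Ctsk, a protease that cuts triple-helical collagen, rose by 1.26, Fap, a fibroblast surface protease, by 0.86, and Mmp14, a membrane-bound collagenase, by 0.75. Mmp2, Mmp8, Mmp9, Mmp13 and Reck were below the noise level on every array, and Mmp13 is nevertheless among the 7 that were called higher.

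In the list of collagen receptors and uptake genes, 3 of 9 tested genes rose and 6 did not pass, with a median of 0.20. Over all tested genes 16.1% rose. The list also holds receptors of other matrix proteins, among them Itga7 and Dag1. Antxr2, the capillary morphogenesis protein that takes part in collagen VI uptake, rose by 0.89, Itga7, an integrin chain of muscle fibres, by 0.55, and Ddr2, a receptor tyrosine kinase for fibrillar collagen, by 0.50 (limma adjusted p = 0.0321). A second tested Itga7 probe set had a difference of 0.10 that did not pass the test, and the Ddr2 call was lost without control replicate 1, 3 or 5 or without mdx replicate 2 or 5. Dag1, which encodes dystroglycan, the matrix receptor of the dystrophin complex, stood at 4563 ± 275 and 4902 ± 389 (SD, n = 5 each) and did not pass the test (limma adjusted p = 0.36). Another tested Dag1 probe set had a log2 difference of the opposite sign, -0.23, that did not pass the test either (limma adjusted p = 0.0554).

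Signals and transcription factors of collagen genes rose in 4 of 26 tested genes, fell in 5 and did not pass in 17, with a median of -0.02, shares close to those over all tested genes. Junb, a subunit of AP-1, went from 217 ± 316 to 1106 ± 272 (SD, n = 5 each), with a log2 change of 1.29. The other rises were Il13ra1, a receptor chain for interleukin 13, at 0.76, Nfya, a subunit of the CCAAT-binding factor NF-Y, at 0.58, and Tgif1, a repressor of TGF-beta signalling, at 0.51, all from control levels below the noise level, and Il13ra1 stayed below it on 4 of 5 mdx arrays. With values below the noise level set to it, the changes of Il13ra1 and Nfya were 0.02 and 0.27 and did not pass the test. The 5 that fell were Cbfb, Nfyc, Ybx1, Ets1 and Pdgfra, of which Ybx1 and Ets1 were named after their values were seen. Their log2 changes were -0.51, -0.31, -0.54, -0.42 and -0.27 in that order, and after scaling to the hybridization controls all but that of Ets1, at -0.19, turned positive. Ets1 was below the noise level on 3 control arrays and on all mdx arrays, and with values below that level set to it its change was -0.03 (limma adjusted p = 0.507). The number that fell was 3 without control replicate 3 or 5 or without mdx replicate 4. Tgfb1, Tgfb2, Tgfbr1, Tgfbr2, Tgfbr3, Smad3 and Smad7, of the TGF-beta pathway, were below the noise level on every array.

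Collagen chains other than the 10 rose in 3 of 12 tested genes, fell in 2 and did not pass in 7, with a median of 0.07. Over all tested genes 16.1% rose and 18.6% fell, so these counts are not far from the shares over all. Col15a1, a collagen of the basement membrane zone, went from 346 ± 60.3 to 1725 ± 437 (SD, n = 5 each), a log2 change of 1.52 (SE 0.13 and limma adjusted p = 2.64e-06). Col18a1, its close relative, rose by 0.67, and Col4a2, a chain of the main collagen of basement membranes, by 0.34. Its partner Col4a1 had a log2 difference of 0.32 that did not pass the test (limma adjusted p = 0.116). The 2 falls were Col12a1 at -0.40 and Col9a1 at -0.70. Col12a1 was below the noise level on 4 control arrays and on all mdx arrays, and its change was -0.09 (limma adjusted p = 0.507) with values set to that level. Another tested Col12a1 probe set had a log2 difference of -0.05 that did not pass the test. Col9a1 was below the noise level on 2 mdx arrays. For these genes 9 of the 10 analyses that leave out 1 array lost at least 1 of the 2 calls, all but the one without mdx replicate 4.

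Markers of the cells that muscle can hold were read beside the collagens. The counts of each cell type stand beside 16.1% of all tested genes that rose and 18.6% that fell. The 8 skeletal muscle fibre genes, which mark the labelled tissue, were all tested, and their summed intensity was 174310 to 294378 on control arrays and 137434 to 206837 on mdx arrays, and of these 7 fell, though none did so after scaling to the hybridization controls. Fibroblast genes rose in 8 of 12, fell in 2 and did not pass in 2, and none fell without control replicate 3 or without mdx replicate 1, 2 or 4. Their median change was 0.72, and their summed intensity was 38614 to 47377 in control and 44904 to 56179 in mdx. This list shares 8 genes with the pathway lists, among them Lum, Dcn, Fap and Loxl1, so the lists are not separate evidence. Thy1 and Mfap5 rose by 1.17 and 1.06, Dpt by 0.93, Fbln2 by 0.68 and Cd34 by 0.38. The other tested probe set of Mfap5, a dim one, did not pass the test at 0.23 (limma adjusted p = 0.175).

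Pdgfra, the surface receptor used to mark fibroblast precursors, had a log2 change of -0.27 (limma adjusted p = 0.0476), and its call was lost without any 1 array except control replicate 2 and mdx replicate 5. Another Pdgfra probe set, which missed the filter, had means of -783 ± 242 and 813 ± 472 (SD, n = 5 each), so the probe sets of this gene go opposite ways. Fbln1 and Vim, at 0.37 and -0.06, did not pass the test, and the sign of Vim turned without control replicate 1, without mdx replicate 1 and after scaling to the hybridization controls. The part of fibroblasts in the collagen changes was not tested.

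Of the other cell types, endothelial genes fell in 2 of 8 tested and rose in none, with a summed intensity of 6793 to 8155 in control and 4979 to 6290 in mdx, and after scaling to the hybridization controls 1 rose and none fell. Smooth muscle and pericyte genes rose in 1 of 7 and fell in 2, and adipocyte genes rose in 1 of 3. No tendon gene of 2 tested and no cartilage or bone gene of 3 tested passed the test, and Col2a1, Col10a1 and Matn1, which define cartilage, were below the noise level on every array. Tendon is rich in collagen I, and the tested tendon genes had summed intensities of 5496 to 9282 in control and 4318 to 6310 in mdx.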

How the data were processed

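The deposited table holds, per the labels, 1 array per column and linear probe set intensity values. The authors' software, background correction, scaling and genome build are not given in the sources used here. It lists 12488 probe sets. After leaving out 66 controls, 10833 name 1 gene in the platform annotation, 396 several and 1193 none. Depth does not apply to arrays, and the number of arrays limits the precision.

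Probe sets were tested where 5 or more of the 10 arrays exceeded 134, the 40th percentile of the table. The test was limma (version 3.58.1, R version 4.3.3), with lmFit and then eBayes with its trend option, mdx against control with no covariate, on log2(intensity + 372). The code was checked on simulated data. Members, lists and tests were chosen with earlier results of these data known. An earlier analysis used a noise level of 157 in place of 372, which was added as an alternative after seeing the data. Single comparisons used exact permutation tests. Beside the members, genes named are the up to 6 of each pathway list with the smallest p, all fibroblast markers and the 5 nearest profiles. Other cell type lists are given by counts and sums. In all, 21 alternatives were run, and another choice of probe set per gene was added after seeing the data.

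Same-numbered arrays of the groups did not deviate together (correlations -0.16 to 0.044), and the arrays were treated as unpaired. These correlations cannot exclude a pairing by number, on which the labels are silent.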

Additional observations from a re-analysis of the deposited data

Results flagged for a closer look

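In 10 of 166 groups of 5 arrays checked, the highest or lowest array stood apart from the other 4 by Dixon's criterion, which chance meets in about 1 of 20 groups. Among the collagens, Col1a2 on 101130_at read 10645.5 on mdx replicate 4, against 8428 on the next array. Col6a1 on 162459_f_at read 175 on control replicate 2, with the next at 291, both below the noise level. Control replicate 1 was the highest of its group for 4 genes, Postn at 616, Antxr2 at 634, Il13ra1 at 143 and Dpt at 2539. Nfya read -82.3 on control replicate 2, the lowest of its group. Col4a2 was flagged in both groups, at 3339 on control replicate 3 and at 4846 on mdx replicate 5. Pdgfra read 609 on mdx replicate 5, against 426 on the next mdx array.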

How the results depend on the processing

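The 14 collagen probe sets that rose kept their direction and call in all 21 alternatives, and the number of collagen probe sets called higher was 14 to 16 (14 to 15 leaving out 1 array). Scaling to the hybridization controls gave 3562 rises and 127 falls over all probe sets, and 57 rises and 1 fall among pathway genes. With no filter 7 pathway genes fell. Leaving out 1 array gave 995 to 1162 rises and 1175 to 1312 falls over all probe sets, 32 to 37 rises and 7 to 9 falls among pathway genes, and 8 to 10 pairs past the threshold. Of the 9 pairs that passed, 7 did so in all 20 alternatives other than the replicate block. With the replicate number as a block, the fit called 1088 rises and 1150 falls and all 14 collagen probe sets, while 0 of 12 pairs passed, since an exact sign-flip permutation test on 5 pairs cannot go below p = 0.0625.

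Signs turned as follows, and the cause was not tested. For Col3a1 98331_at minus 102990_at the difference was -0.38 with 0.5 times the noise level, -0.15 with values set to the noise level, -0.47 with the median-based level and -0.14 to 0.14 leaving out 1 array. For the Col6a1 probe sets it was -0.20, -0.20 and -0.25 under the same settings and -0.031 to 0.084 leaving out 1 array. For the Col5a1 probe sets it was 0.15 with values set to the noise level. Quantile normalization gave 0.034 for Col1a2 161156_r_at and 0.14 for Dcn. Scaling to the hybridization controls gave 0.52 for Col1a2 161156_r_at, 0.29 for Dcn, 0.10 for Cbfb, 0.25 for Nfyc, 0.094 for Pdgfra, 0.33 for Vim, 0.21 for Sec23a, 0.078 for Mia3 and 0.090 for Ybx1. Reading each gene on its probe set brightest in control, an alternative added after seeing the data, gave 9 collagen genes, 35 pathway rises and 11 pathway falls, and turned Col1a2 minus Col1a1 to -1.49. Vim was at -0.16 to 0.022 leaving out 1 array. Probe sets below the noise level in a group have only a bound there.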
